A study of Mus musculus with 6 samples.

Results

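The genes described here are the protein-coding histone genes of the mouse, the linker histone H1 among them, as they were measured in poly(A)-selected RNA of activated CD8+ T cells. They were chosen by name and transcript type: rows whose transcript type included protein coding and whose symbol began with a histone prefix (such as H1f, H2ac, H2bc, H2az, H3c, H3f, H4c or Hist1h), leaving out 1 oocyte linker gene. This gave 67 of the 27480 genes in the table. Of these, 7 were linker histones and 60 were core histones, and 60 were replication-dependent and 7 replacement histones. A further 9 rows fitted the names but were pseudogenes or noncoding transcripts and were not used. The rule used no measured value. On chromosome 13 lay 52 of the 67 genes, and on chromosome 3 lay 8.

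DNA in the nucleus is wound around octamers of the core histones H2A, H2B, H3 and H4, and the linker histone H1 binds where DNA enters and leaves the octamer. Replication-dependent histone genes lie in clusters, are transcribed mainly in S phase, and give mRNAs that end in a short stem-loop, bound by the protein SLBP, in place of a poly(A) tail. Replacement histones, such as H3.3 and H2A.Z, are made throughout the cell cycle from ordinary polyadenylated mRNAs. Selection on poly(A) therefore retains replacement histone mRNA and depletes the bulk of replication-dependent histone mRNA.

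The study comprised 6 libraries of OT1 CD8+ T cells, killer T cells of mice bearing a transgenic receptor for an ovalbumin (OVA) peptide. The cells are labelled wild type, and all were stimulated with OVA peptide for 48 h. In 3 libraries (vector 1 to 3) they carried an overexpression vector, and in 3 (PTMA 1 to 3) they overexpressed prothymosin alpha (PTMA), an acidic protein of the nucleus known to bind histone H1. Per its title, the series asks about PTMA in mitochondrial integrity and antitumor persistence of these cells. The labels do not give the promoter of the construct, the age of the animals, or whether replicates came from separate mice or cultures. The p-values therefore rest on a spread among libraries that could be purely technical.

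Total counts ran from 54989408 to 66767589 per library, and the histone genes held 0.336% to 0.380% of them. Levels between libraries are given as CPM, counts scaled to library size with TMM factors (which correct for library composition), and levels between genes as FPKM, which also divides by gene length. The 10 T cell and CD8 markers summed to 9174 to 10155 CPM in every library, whereas B cell markers stood at 0.878 to 1.99 CPM. Markers of oocytes, 10 of 10 present in the table, summed to 25.5 to 35.0 CPM in the vector and 1.94 to 4.34 CPM in the PTMA libraries. Gdf9 alone gave 24.7, 12.5 and 19.3 CPM of the vector sums. Keratinocyte markers summed to 1.86, 19.6 and 29.0 CPM with vector and 10.7, 2.59 and 1.37 CPM with PTMA. The part of oocyte and keratinocyte markers in the results was not tested. The histones of germ cells among the members, H2ac1 and H2bc1, had no more than 0.153 CPM together in any library. Ptma itself measured 848, 783 and 1146 CPM with vector against 1152, 1346 and 1272 CPM with PTMA (log2 fold change 0.44, SE 0.13, edgeR adjusted p = 0.951). Vector 3 stood apart from the other vector libraries for Ptma, for mitochondrial ribosomal RNA (5609 CPM against 3620 and 2700) and for most replacement histones below.

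The 3′ stem-loop, the feature that sets replication-dependent histone mRNA apart, was read from the GENCODE M21 gene models. It was present after the stop codon of 40 of the 60 replication-dependent genes, at 21 to 58 bases from it, and in 9 of 22460 other coding genes (0.0401%). Of the 20 models without it, 14 end within 25 bases of the stop codon. Among replacement genes H2ax alone carried one; its mRNA is known to exist in both a stem-loop and a polyadenylated form. The sequences below are those of the genes on which the results turn, with the 16 bases of the stem-loop in capitals and 5 bases on each side.
Hist1h2ao: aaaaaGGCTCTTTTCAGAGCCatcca
H1f4: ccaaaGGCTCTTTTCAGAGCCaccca
H2bc11: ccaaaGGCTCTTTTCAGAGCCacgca
H3c2: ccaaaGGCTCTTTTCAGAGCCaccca
H4c4: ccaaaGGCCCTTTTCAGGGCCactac
H2ax: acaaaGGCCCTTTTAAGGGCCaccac
The form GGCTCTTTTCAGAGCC was the most frequent, in 23 genes (3 of H1, 8 of H2A, 7 of H2B and 5 of H3), and in 0 genes of H4. All 11 stem-loops of H4 genes had another stem, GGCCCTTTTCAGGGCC in 7, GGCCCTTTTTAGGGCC in 2 and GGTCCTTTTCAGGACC in 2. Among the other replication-dependent families the remaining forms kept the stem of the most frequent form and differed in the last base of the loop, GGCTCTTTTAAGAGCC in 5 genes of H2B and H3 and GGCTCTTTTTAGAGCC in 1 of H2A. The stem of H2ax, a replacement gene, was that of most H4 genes.

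Per length, RNA of the replacement histones was the more abundant per gene, with a median of 128 FPKM over 7 genes against 2.54 FPKM over 60 replication-dependent genes. Summed over genes the order was the other way in the vector libraries, at 1065 ± 115 FPKM for replacement and 1467 ± 209 FPKM for replication-dependent genes, and the PTMA libraries had 1160.5 ± 54.0 and 1197 ± 179 FPKM (SD, n = 3 per group). In order of mean FPKM over 6 libraries the replacement genes were H2az1 (400), H3f3b (294), H2ax (146), H3f3a (128), H2az2 (111) and H1f0 (33.7), with H1f10 near 0. Within the replication-dependent class the spread was wide. A pair of neighbouring H2A genes, Hist1h2ap (448 FPKM) and Hist1h2ao (351 FPKM), reached the level of the replacement histones. They were followed by H2ac11 (115), H2ac12 (90.9), Hist1h2an (58.6), H2ac8 (37.4) and H4c4 (36.7). H2A thus led its class, mostly through genes that share sequence with others, as given below. Summed over genes, its level in the vector libraries was 1304 ± 206 FPKM (SD, n = 3). Of this, Hist1h2an, Hist1h2ao and Hist1h2ap held 977 ± 167 FPKM. The other families had 58.4 ± 4.27 (H4), 41.3 ± 0.71 (H2B), 35.5 ± 1.06 (replication-dependent H1) and 27.6 ± 0.46 FPKM (H3).

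Hist1h2ao and Hist1h2ap share a further feature. Directly before the stem-loop each carries a run of 12 adenines, shown here in capitals with the 9 bases before it and the bases that follow.
Hist1h2ao: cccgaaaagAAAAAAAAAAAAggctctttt
Hist1h2ap: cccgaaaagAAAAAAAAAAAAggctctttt
H2ac8: taatctcgtAAAAAAAAcaaaggctctttt
H2ac8 has 8 adenines 4 bases before its stem-loop. In all, 7 replication-dependent transcripts held a run of at least 8 adenines, and the median longest run over the 60 was 4.5. In the other 4, H1f3, H2ac6, H2bc4 and H2bc6, the run was not followed by a stem-loop. Whether these runs bear on the levels in poly(A) RNA was not tested. The transcripts of Hist1h2ao and Hist1h2ap are also near copies: 92.7% of the 100-base windows of Hist1h2ao occur in Hist1h2ap. How reads with several matches were counted is not given in the sources used here, so the split of counts between them is uncertain. In 24 of the 60 replication-dependent genes no more than 50% of the windows were unique in the annotation. In the vector libraries these 24 genes held 1277 ± 202 of the 1467 FPKM of the class, and the other 36 held 190 ± 6.65 (SD, n = 3). The lead of H2A and the summed order of the classes therefore rest mostly on genes with shared windows.

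**Figure D1:**
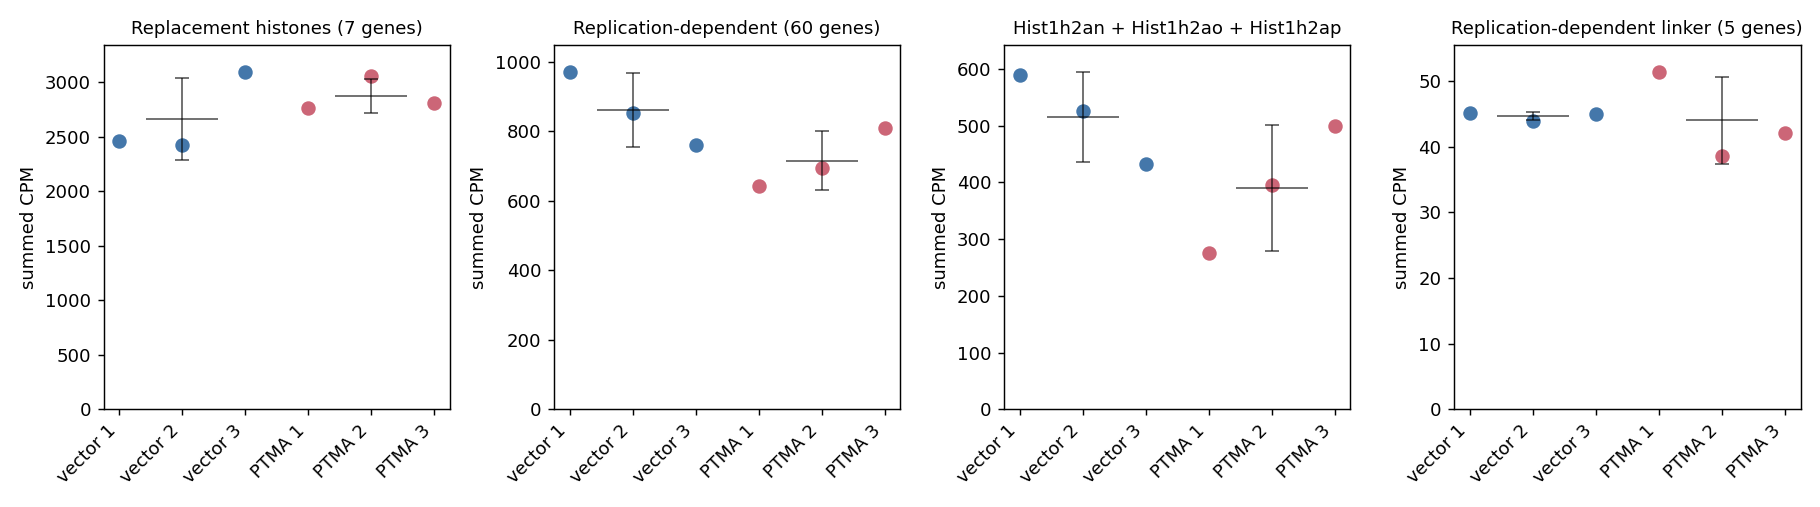
Summed CPM in each of the 6 libraries (x axis; blue vector, red PTMA; bars, mean ± SD of 3 libraries) for 4 groups of histone genes. Replacement histones are highest in vector 3 and PTMA 2, replication-dependent histones are highest in vector 1 (972) and lowest in PTMA 1 (644), and the trio Hist1h2an, Hist1h2ao and Hist1h2ap is lowest in PTMA 1 (276) while the replication-dependent linker genes are highest there (51.4).

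No histone gene passed the test of PTMA against vector. Of the 63 genes with enough counts to be tested, 0 passed (edgeR quasi-likelihood, adjusted p 0.951 to 0.999), against 2 of all 16592 genes tested (0.0121%). At an unadjusted p under 0.05 there was 1 histone gene, H3c2, which was lower in PTMA. Of all genes 4.65% reached that value, and 2.72% did so with a lower level in PTMA. DESeq2 also called 0 histone genes, against 43 of all genes (0.157%), with 3 histone genes at an unadjusted p under 0.05, against 3.73% of all genes. The 3 libraries of each group did not overlap for 5 of the 63, H2ax and Hist1h2bp being higher and H3c2, H4c3 and H4c14 lower in PTMA, while 10.8% of all genes did not overlap (5.39% higher and 5.38% lower). The log2 fold change was negative for 41 of 63, with a median of -0.05, and negative for 53.2% and positive for 46.8% of all genes, with a median of -0.01. The 4 untested genes were H1f10, H2ac1, H2ac21 and H2bc1, each at 0 in at least 1 library and with at most 17 counts in any. In bulk RNA such as this, the share of cells in S phase and the histone RNA per cell cannot be told apart.

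**Figure D2:**
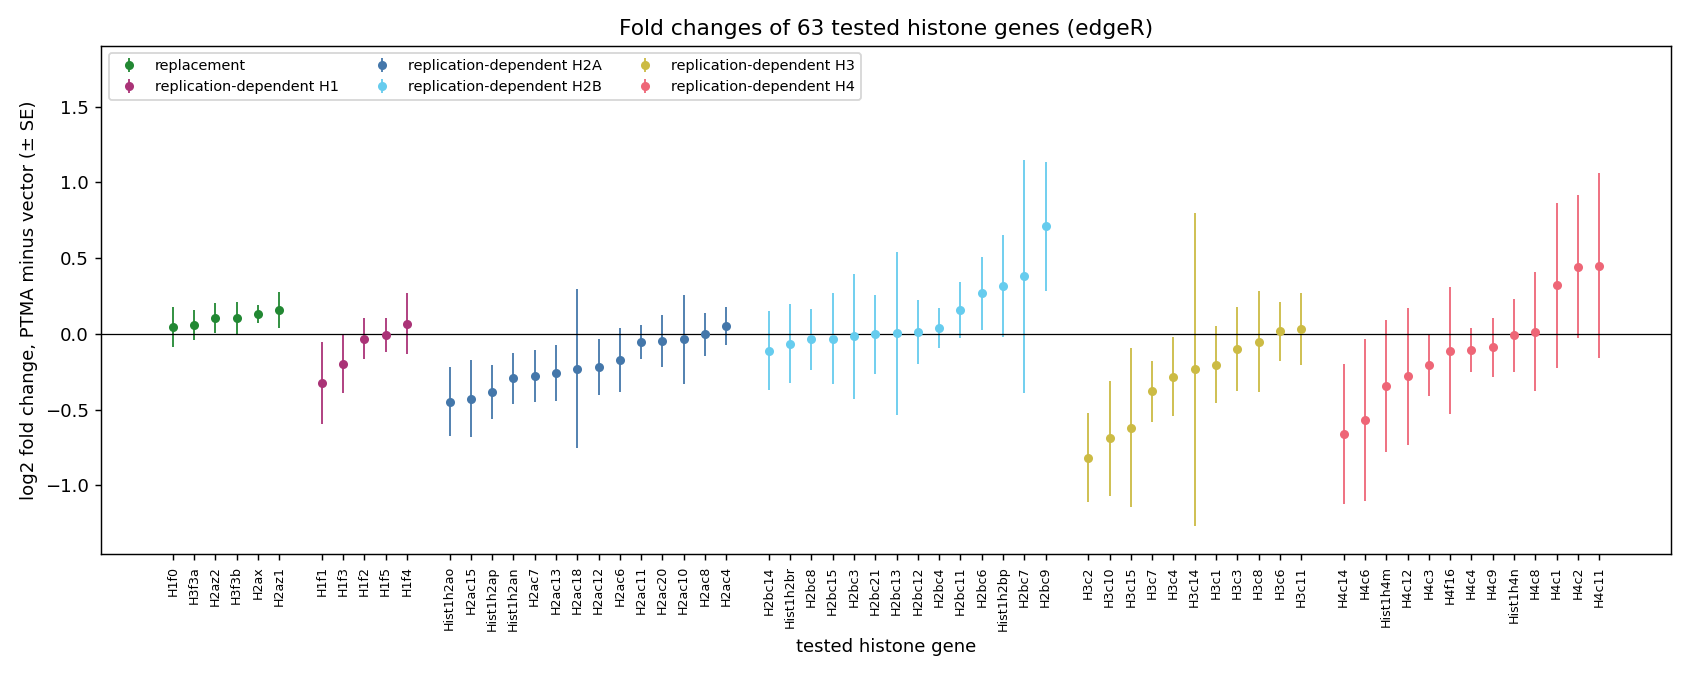
Log2 fold change of PTMA over vector (y axis; bars, SE from edgeR) for the 63 tested histone genes (x axis), ordered within class and family. All 6 replacement genes lie between 0.05 and 0.16, 13 of 14 replication-dependent H2A genes lie below 0, and H3c2 has the lowest value (-0.82).

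The classes leaned in opposite directions, within the spread of the libraries. Replication-dependent genes summed to 972, 852 and 761 CPM with vector and to 644, 694 and 809 CPM with PTMA, each in the order of replicates 1 to 3 used throughout. Replacement genes summed to 2458, 2428 and 3097 CPM in the vector and 2762, 3056 and 2808 CPM in the PTMA libraries. In both classes the groups overlapped: vector 3 lay below PTMA 3 for the first and above all 3 PTMA libraries for the second. The ratio of the summed counts was 0.396, 0.351 and 0.246 in the vector and 0.233, 0.227 and 0.288 in the PTMA libraries, or 0.331 ± 0.077 and 0.249 ± 0.033 (SD, n = 3 per group). The log2 ratio of the means was -0.41, with a spread of 0.29 (pooled SD of the log2 values), and as a value over chosen genes it has no test. Without vector 3 it was -0.58, without vector 1 -0.26, and without Hist1h2an, Hist1h2ao and Hist1h2ap -0.21. Of 57 tested replication-dependent genes 41 had a negative log2 fold change (median -0.06, -0.03 without vector 1, and -0.13 without vector 2 or PTMA 1), and of 6 replacement genes 0 did (median 0.10).

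**Figure D3:**
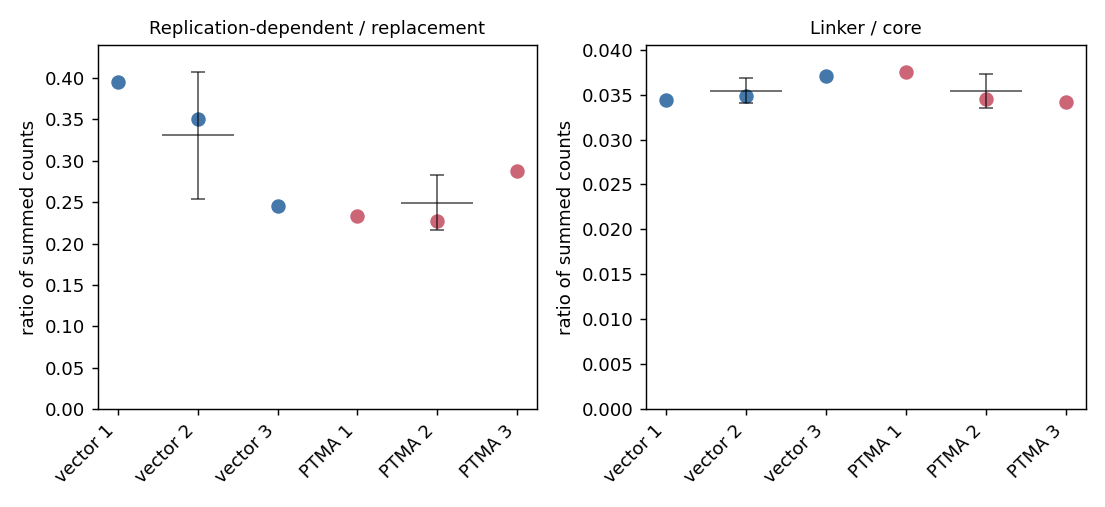
Ratio of summed counts in each library (x axis; blue vector, red PTMA; bars, mean ± SD of 3 libraries) for replication-dependent over replacement genes, left, and linker over core genes, right. The left ratio runs from 0.227 to 0.396 with vector 3 among the PTMA libraries, and the right one from 0.0342 to 0.0376 in both groups.

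The ratio of linker to core histones did not differ beyond the spread of the libraries. It was 0.0344, 0.0349 and 0.0370 for vector and 0.0376, 0.0345 and 0.0342 for PTMA, with a log2 ratio of means of -0.002 and a pooled SD of 0.066. Linker genes summed to 114, 111 and 138 CPM in the vector and 123, 125 and 120 CPM in the PTMA libraries. Within the replication-dependent class the linker to core ratio was 0.0487, 0.0543 and 0.0627 in the vector and 0.0867, 0.0589 and 0.0548 in the PTMA libraries. PTMA 1 stood above the other 5 here, having the most linker RNA and the least H2A RNA of its class.

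Of the linker genes themselves, 0 of 6 tested passed. The replacement linker H1f0 (chromosome 15, 79028450 to 79030504 on GRCm38), known to accumulate in cells that stop dividing, had 68.7, 66.6 and 92.8 CPM in the vector and 71.8, 86.2 and 77.6 CPM in the PTMA libraries. Its groups overlapped (log2 fold change 0.05, SE 0.13), and the sign turned without vector 1, vector 2 or PTMA 2. H1f5 (chromosome 13, 21779883 to 21780625), the highest replication-dependent linker at 22.7 FPKM, had 17.8, 18.5 and 20.1 CPM and 20.8, 17.2 and 18 CPM, and a log2 fold change of -0.01 (SE 0.11). H1f4 had 12.3, 10.2 and 11.1 CPM in the vector and 15.4, 8.68 and 11.2 CPM in the PTMA libraries, so that PTMA 1 was the highest and PTMA 2 the lowest library. Its log2 fold change of 0.07 (SE 0.20) was -0.17 without PTMA 1. H1f2 (8.81, 9 and 8.61 against 9.78, 7.93 and 8.12 CPM) repeated that order within PTMA, with a log2 fold change of -0.03 (SE 0.13). H1f3 and H1f1 stood at 4.16 ± 0.48 and 3.62 ± 0.57 CPM and at 1.63 ± 0.19 and 1.3 ± 0.20 CPM (SD, n = 3, vector then PTMA), with log2 fold changes of -0.20 (SE 0.19) and -0.32 (SE 0.27).

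The replacement core histones had positive log2 fold changes of at most 0.16, none past the test. The H2A.Z and H3.3 genes were low in vector 1 and vector 2, and H2ax was low in vector 3 as well. H2ax (chromosome 9, 44334694 to 44336077), the variant phosphorylated at DNA breaks, had 210, 216 and 218 CPM in the vector and 232, 244 and 230 CPM in the PTMA libraries. The groups did not overlap, and the log2 fold change was 0.13 (SE 0.06, edgeR adjusted p = 0.951). H2az1 (chromosome 3, 137864487 to 137866922), which encodes the H2A.Z of gene promoters, had 679, 657 and 911 CPM and 805, 886 and 812 CPM (log2 fold change 0.16, SE 0.12). Here vector 3 was the highest of all 6 libraries. Its paralog H2az2 had 189, 174 and 223 CPM and 194, 219 and 216 CPM (log2 fold change 0.10, SE 0.10), again with vector 3 highest. Of the genes for H3.3, H3f3b had 864, 868 and 1082 CPM and 943, 1126 and 960 CPM (0.11, SE 0.11). The other, H3f3a, had 447, 447 and 570 CPM and 517, 494 and 513 CPM (0.06, SE 0.10). Without vector 3 the median log2 fold change of the 6 replacement genes was 0.21 in place of 0.10, and all 6 had an unadjusted p under 0.05 with an adjusted p of 0.189 to 0.296 (edgeR). In that fit 15.4% of all genes had an unadjusted p under 0.05, 7.68% as higher in PTMA. Of all 63 histone genes 10 did, a share close to that of all genes. Without vector 2 the median was 0.05 and without vector 1 0.07.

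The replication-dependent H2A genes summed to 801, 700 and 600 CPM in the vector libraries and 474, 550 and 658 CPM in those with PTMA. Of 14 tested, 13 had a negative log2 fold change (median -0.22), and for 0 did the groups stay apart. Several of these genes share windows with one another, so the 13 signs may not be independent. With 1 library left out the median ran from -0.28 to -0.06, being -0.06 without vector 1 and -0.13 without PTMA 3. Hist1h2ap (chromosome 13, 21833026 to 21833507) had 309, 274 and 230 CPM in the vector and 155, 209 and 261 CPM in the PTMA libraries. Hist1h2ao (chromosome 13, 21810465 to 21810944) had 246, 225 and 178 CPM and 102, 164 and 210 CPM. In both, PTMA 1 was the lowest library and PTMA 3 lay within the vector range. The log2 fold changes were -0.38 (SE 0.18) and -0.45 (SE 0.23), with an adjusted p of 0.951 for both (edgeR), and -0.21 for each without PTMA 1. Together with Hist1h2an, the third of these neighbours, they held 590, 526 and 432 CPM in the vector and 276, 395 and 499 CPM in the PTMA libraries. The other 57 replication-dependent genes held 383, 326 and 329 CPM and 369, 299 and 310 CPM. PTMA 1 was thus the lowest library for the trio and the second highest for the remainder. Every one of the 16 replication-dependent H2A genes overlaps another annotated gene, and the use of strand in counting is not given in the sources used here.

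**Figure D4:**
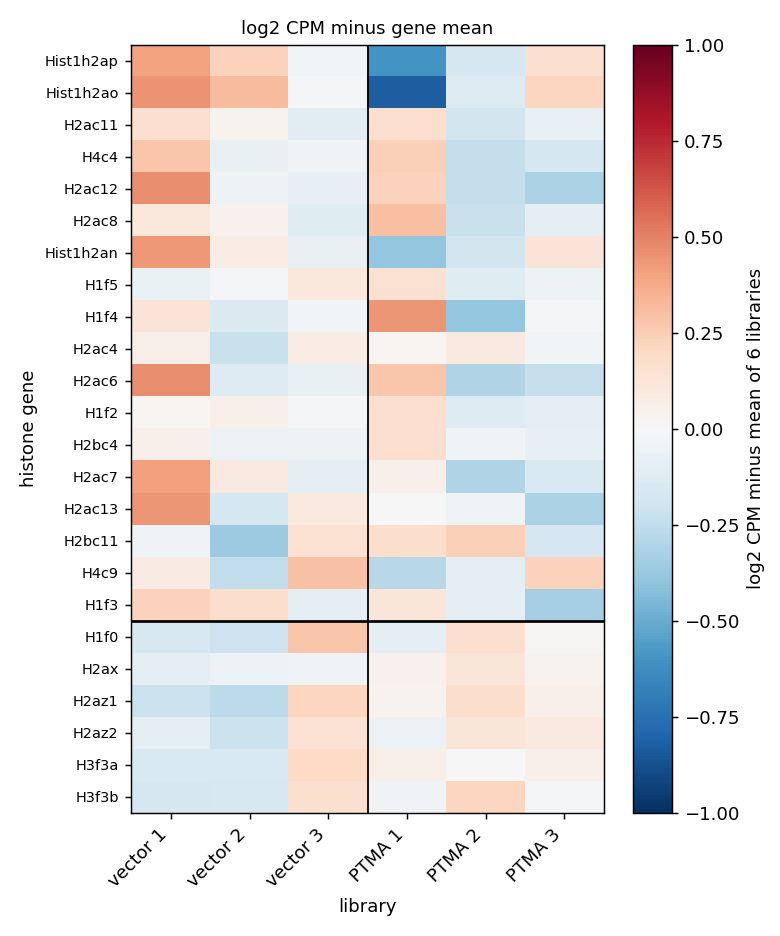
Log2 CPM of each library (x axis) minus the gene's mean over 6 libraries (colour), for the 18 replication-dependent genes of highest mean CPM, above the line, and 6 replacement genes, below it. Hist1h2ap, Hist1h2ao and Hist1h2an are lowest in PTMA 1, where H1f4 and H2ac8 are highest. The replacement genes are low in vector 1 and vector 2, and H2ax is low in vector 3 as well.

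The pattern by library therefore differed among replication-dependent genes. Vector 1 was the highest library for 21 of the 57 tested and PTMA 2 the lowest for 18. The share of all genes with these extremes was not determined, so neither count is read as a trait of the histones. Genes with over 50% unique windows (36 genes) summed to 207, 184 and 189 CPM in the vector and 211, 170 and 178 CPM in the PTMA libraries. Those with fewer (24 genes) summed to 765, 668 and 572 CPM and 433, 525 and 631 CPM. The median log2 fold change was -0.04 in the first set and -0.23 in the second. Gene models that reach over 100 bases past the stem-loop (19 genes), and so include sequence found only in longer transcripts, summed to 155, 131 and 130 CPM and 154, 116 and 127 CPM. Models that end at most 100 bases past it (21 genes), Hist1h2ao and Hist1h2ap among them, summed to 673, 608 and 516 CPM and 371, 475 and 575 CPM. Those with no stem-loop (20 genes) summed to 144, 112 and 115 CPM and 119, 103 and 107 CPM. The log2 ratios of these sums, PTMA over vector, were -0.07, -0.34 and -0.18, and the median log2 fold changes of their genes -0.11, -0.06 and -0.05.

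The H2B genes summed to 34.6, 31.8 and 34.6 CPM in the vector and 36.5, 36.2 and 33.3 CPM in the PTMA libraries, with 8 of 14 log2 fold changes positive. Their median was 0.01, and -0.02 to 0.09 when 1 library was left out (0.09 without vector 1 or without PTMA 3). H2bc4 (chromosome 13, 23684199 to 23692908) had 8.43, 7.79 and 7.85 CPM and 9.10, 7.94 and 7.68 CPM (log2 fold change 0.04, SE 0.13). H2bc11 had 5.93, 4.71 and 6.72 CPM and 6.84, 7.16 and 5.39 CPM (0.16, SE 0.18).

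Many H2A and H2B genes lie head to head and share the region between their starts. There were 11 such pairs with at most 500 bases between the starts. In 9 of them the H2A gene had the higher FPKM in all 6 libraries, by 2.37-fold (H2ac15 and H2bc15) to 651-fold (Hist1h2ap and Hist1h2br). The size of the last is uncertain. Only 7.83% of the windows of Hist1h2ap and 13.6% of those of Hist1h2br are unique, and their models differ in length (482 and 2212 bases). The exceptions by FPKM were H2ac6 and H2bc4, where the H2A gene had 3.65 and the H2B gene 6.32 FPKM, and the germ-cell pair, near 0. The gene model of H2ac6 spans 2482 bases and that of H2bc4 1156. By CPM, without division by length, H2ac6 was the higher in all 6 libraries. Its means were 10.7 CPM with vector and 9.48 CPM with PTMA, against 8.02 and 8.24 CPM for H2bc4. For H2ac11 and H2bc11 the means were 115 and 11.8 FPKM, 9.70-fold apart. Their shared region is printed because a single stretch serves both genes, on GRCm38 at chr13:22042948-22043213, plus strand, from RefSeq, with each CCAAT or its reverse complement ATTGG in capitals.
H2bc11: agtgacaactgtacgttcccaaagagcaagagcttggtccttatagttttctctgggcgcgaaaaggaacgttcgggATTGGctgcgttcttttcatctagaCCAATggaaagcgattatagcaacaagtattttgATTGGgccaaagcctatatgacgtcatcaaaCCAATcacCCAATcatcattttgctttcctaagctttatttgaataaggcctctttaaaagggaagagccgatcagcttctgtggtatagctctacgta
It holds 5 such motifs. RefSeq promoter windows (250 bases before to 50 after the start) were found for 54 of the 67 genes. CCAAT on either strand was in all windows of H1 (5 of 5), H2A (13 of 13), H2B (11 of 11) and H3 (9 of 9) of the replication-dependent class, but in 3 of 10 of H4, and in 37.9% of 27025 promoters of all genes. TATAAA on either strand was in 30 of 48 replication-dependent windows, 1 of 6 replacement windows and 14.2% of all. Windows of a head-to-head pair overlap and are not independent.

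**Figure D5:**
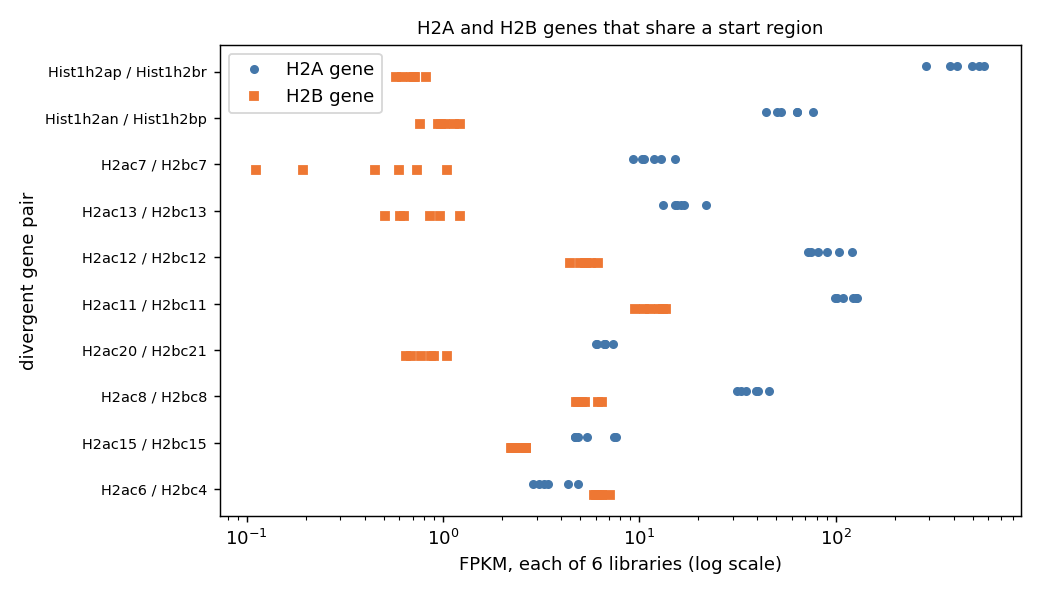
FPKM (x axis, log scale) of the H2A gene (circles) and the H2B gene (squares) in each of 6 libraries for 10 head-to-head pairs (y axis); the germ-cell pair near 0 is left out. By FPKM, which divides by gene length, the H2A gene is higher in every library except in H2ac6 and H2bc4.

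The H3 genes summed to 21.8, 19.6 and 21.2 CPM in the vector and 15.5, 17.3 and 20.2 CPM in the PTMA libraries, with 9 of 11 log2 fold changes negative (median -0.23, -0.41 without PTMA 3 and -0.14 without PTMA 1). H3c2 (chromosome 13, 23752267 to 23752886) had 1.88, 2.04 and 2.39 CPM in the vector and 0.878, 1.53 and 1.17 CPM in the PTMA libraries. Every vector library lay above every PTMA library, and the log2 fold change was -0.82 (SE 0.29, edgeR unadjusted p = 0.0209, adjusted p = 0.951). Only 43.4% of its windows are unique. The H3 genes of highest FPKM were H3c11, with 2.38 ± 0.13 and 2.43 ± 0.56 CPM (SD, n = 3, vector then PTMA; log2 fold change 0.03, SE 0.24), and H3c1, with 2.54 ± 0.58 and 2.21 ± 0.34 CPM (-0.20, SE 0.25). By CPM the highest was H3c7, named after its values were seen, with 3.75, 3.95 and 3.21 CPM in the vector and 2.57, 2.57 and 3.24 CPM in the PTMA libraries (-0.38, SE 0.20), where PTMA 3 lay above vector 3.

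For H4 the sums were 70.0, 56.9 and 60.8 CPM in the vector and 67, 51.8 and 55.5 CPM in the PTMA libraries (9 of 13 log2 fold changes negative, median -0.11). Leaving out 1 library gave medians of -0.23 (without PTMA 3), -0.19 (PTMA 1), -0.06 (PTMA 2) and -0.05 (vector 2). H4c4 (chromosome 13, 23581598 to 23582735), whose windows are all unique, supplied most of this, with 55.9, 43.7 and 45 CPM and 54.4, 39.0 and 40.7 CPM (log2 fold change -0.11, SE 0.15). Vector 1 and PTMA 1 were its high libraries, and the log2 fold change was 0.01 without the first and -0.27 without the second. H4c9 had 5.82 ± 1.07 and 5.47 ± 0.997 CPM (SD, n = 3, vector then PTMA), a log2 fold change of -0.09 (SE 0.20), which turned positive without vector 3 (0.04) or PTMA 1 (0.02). H4c3 and H4c14, whose groups did not overlap, stood at 2.59 ± 0.04 and 2.24 ± 0.18 CPM and at 0.494 ± 0.133 and 0.311 ± 0.048 CPM (SD, n = 3, vector then PTMA), with log2 fold changes of -0.21 (SE 0.20) and -0.66 (SE 0.46).

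Genes that make, process and deposit histones did not pass the test either (0 of 45 by edgeR, and 2 at an unadjusted p under 0.05, near the 4.65% of all genes). Among 10 genes of histone transcription 6 were positive (median 0.04). Npat, the activator of replication-dependent histone genes, had 70.0, 72.9 and 60.5 CPM in the vector and 68.5, 60.4 and 69.0 CPM in the PTMA libraries (log2 fold change -0.04, SE 0.10), and the cyclin gene Ccne1 had 0.13 (SE 0.07). Of 15 genes of 3′ end processing 10 were positive (median 0.05). Slbp, which binds the stem-loop, had 258, 251 and 326 CPM and 281, 330 and 269 CPM (0.08, SE 0.12), and Lsm11, a component of the U7 particle that guides the cut, had -0.18 (SE 0.10). Of 20 genes of chaperones and deposition 10 were positive (median 0.00). Among them Chaf1b, a subunit of the factor that deposits H3 and H4 behind the replication fork, had 0.19 (SE 0.07).

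S phase genes rise in cycling cells together with histone mRNA, the bulk of which poly(A) selection depletes. The replication-dependent sum leaned down in PTMA (log2 ratio -0.27, groups overlapping). Without Hist1h2an, Hist1h2ao and Hist1h2ap this was -0.09, and H2B leaned up (0.07). S phase genes had a higher summed level in every PTMA library. How these leans relate was not tested. The S phase sum was 5302, 5351 and 5526 CPM for vector and 5919, 6050 and 5891 CPM for PTMA, and the groups did not overlap. Of 20 genes 18 were positive (median 0.14), among them the helicase subunit Mcm3 at 0.18 (SE 0.06), and 0 passed (edgeR, 6 at an unadjusted p under 0.05 against 4.65% of all genes). For 10 of the 20 the PTMA libraries lay above the vector libraries, against 5.39% of all genes.

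Of 11 listed RNAs that normally lack a poly(A) tail, outside the small nucleolar class, 4 were tested. In 3 of the 4 (Rn7s1, Rn7s2 and Rn7sk) the PTMA libraries all lay below the vector libraries, against 5.38% of all genes. Rn7s2 is a copy of Rn7s1, so they are not separate cases, and Rn7sk stood at 0.780 to 1.64 CPM. None of the 4 passed the test, and the part of these RNAs in the histone values was not tested. Rn7s1, the RNA of the signal recognition particle, had 73.9, 51.3 and 55.8 CPM in the vector and 36.6, 34.8 and 47.8 CPM in the PTMA libraries (log2 fold change -0.60, SE 0.16, edgeR adjusted p = 0.951). Its copy Rn7s2 had 78.7, 52.3 and 58.9 CPM and 39.2, 36.8 and 50.4 CPM. Vector 1 was the highest and PTMA 3 the highest of its group for both, as for the replication-dependent sum. The rest of the order differed. Both were lowest in PTMA 2 and, within their group, vector 2, and the replication-dependent sum in PTMA 1 and vector 3. The small nucleolar and Cajal body RNAs, 125 genes, summed to 12, 12.8 and 9 CPM and 8.69, 8.66 and 10.5 CPM, with overlapping groups and 15 of 21 tested log2 fold changes negative. Outside the histones, the genes whose log2 CPM was most like the summed replication-dependent level over the 6 libraries were Gm49797 (Pearson r = 0.987), Zfp26 (0.983) and Asxl1 (0.982), given as a description of 6 points that share library and depth.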

How the data were processed

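Per the file headers, a single deposited table holds whole-number counts for each gene in each library and, beside them, FPKM computed by the authors. Bowtie 0.12.2, HISAT2 2.0, StringTie 1.3.0 and build mm8 appear without roles in the submitters' processing notes. The table's coordinates are those of GRCm38 (99.7% of 27405 identifiers share a start or end with GENCODE M21). Paired reads came from poly(A) RNA, per the labels' protocols, whose mention of adipose does not match the cells. Groups and replicate numbers came from the sample titles.

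Counts of all genes were tested with edgeR 4.0.16 (R 4.3.3; TMM, filterByExpr with minimum count 10, quasi-likelihood test, group only), adjusted by Benjamini-Hochberg over 16592 genes with a threshold of 0.05, after a test on simulated data. A count of 0 allows up to 3 counts, 0.0449 to 0.0546 CPM per library, for counting error only. Transcript types that include protein coding among others (5 genes) were kept. H1f1 to H1f5 and H4f16 were classed replication-dependent, which differs from the literal names set out at first. Named genes are Ptma, the tested linker and replacement genes, the 2 of highest FPKM per replication-dependent core family, the 3 of smallest p (H3c2, H2ax and Hist1h2ap) and, per pathway list, the smallest p with Slbp and Npat; others were named after their values were seen. Members and lists were chosen with earlier results of these data known. Alternatives were limma 3.58.1 on log2(FPKM + pseudocount), DESeq2 1.42.0, other scalings and filters, a replicate block and leaving out each library. Libraries of a group were no duplicates (chi-square per gene 17.7 to 84.8).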

Additional observations from a re-analysis of the deposited data

How the results depend on the processing

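The number of histone, pathway and S phase genes past the threshold was 0 in all 14 alternative fits, and the fewest and most histone genes at an unadjusted p under 0.05 were 1 and 10, the latter without vector 3. Over all genes the number was 2 with median-of-ratios or total-count scaling, 0 with no filter, 43 with DESeq2, 1 with limma on log2(FPKM + 1), 1 with a pseudocount of 0.1 and 0 with no filter on FPKM. Leaving out each library gave 0 to 4 (4 without PTMA 2, 1 without vector 3, and 0 each without vector 1 or PTMA 3). The log2 ratio of replication-dependent to replacement histones stayed negative, between -0.58 and -0.17 in every alternative run. The log2 ratio of linker to core histones was -0.05 to 0.03 when a library was left out, 0.13 on summed FPKM, 0.27 over replication-dependent genes only and, chosen after seeing the data, 0.16 over genes typed as protein coding alone and -0.071 without Hist1h2an, Hist1h2ao and Hist1h2ap. The causes were not tested, and this ratio has no stable sign. Libraries of one number showed no shared deviation by correlation (-0.12, -0.16 and -0.12), so these correlations give no pairing. Replicate 1 was the highest library of both groups for the H4 sum and for the replication-dependent sum without Hist1h2an, Hist1h2ao and Hist1h2ap. That trio went the other way, being highest in vector 1 and lowest in PTMA 1. Whether the replicate number bears on these sums was not tested. With a replicate block 0 genes passed in all and 0 histone genes. Of the family medians, H2B ran from -0.02 to 0.09 when 1 library was left out, with 0.09 without vector 1 and without PTMA 3. Fold changes of genes below about 1 CPM, such as H4c14, rest on few counts.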
